A study of Drosophila melanogaster with 42 samples.

Results

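The deposited list of regions with more methylation by a Dam-H1 fusion than by Dam alone in intestinal stem cells (ISCs) of the Drosophila midgut held 129 peaks, and all of them are described here, among 22355 peaks in the 7 lists of the series. Targeted DamID drives a bacterial adenine methylase, Dam, fused to a chromatin protein in a chosen cell type, and methylated GATC sites are then read by sequencing. The H1 list came from 3 Dam-H1 samples set against 3 Dam-only samples, numbered 4, 6 and 8 in their titles, each made from 60 intestines. The other 6 lists were of Kismet, RNA Pol II, Brahma (Brm), Polycomb (Pc), HP1 and Trithorax-related (Trr), with 3 samples per fusion. The H1, Brm and HP1 calls had these 3 Dam-only samples in common, Pc shared 1 of them, and Kismet, RNA Pol II and Trr shared none. Every sample used here carried esg-gal4ts NREGal80 and a UAS transgene, which was UAS-Dam in the controls, and an integrated UAS-LT3-Dam-H1 transgene in the H1 samples. Flies were kept at 18°C, and the transgene was induced in 3-day-old flies by 1 day at 29°C. The escargot driver acts in ISCs and enteroblasts, and the Notch-responsive Gal80 blocks it in enteroblasts, so the profile is of a fusion protein made in esg-positive ISCs in addition to the endogenous histone. The genotype entries of Dam-H1 samples 2 and 3 read UAS-DamH2 and UAS-DamH3, and these samples were taken as H1 from their titles.

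Histone H1 is the linker histone, which binds the nucleosome where DNA enters and leaves and favours compact chromatin. HP1 reads methylated histone H3 in pericentric heterochromatin, and Pc is part of the Polycomb repressive complex that keeps developmental regulators silent. RNA Pol II, the chromatin remodellers Kismet and Brm and the histone H3 methyltransferase Trr are known from transcribed genes and their enhancers. A peak is given only by its arm and its 2 borders, on release 6 of the genome. The lists hold no value per sample, so nothing below was tested against the spread between samples, comparisons are counts beside the background, and a difference between shares is not claimed to be particular to H1. Sequencing depth is unknown. Intervals are 95% Wilson intervals, which cover counting error over peaks or genes only and are too narrow where neighbours are not independent.

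The H1 list was the shortest of the 7, and its peaks were small. The peaks covered 43299 bp in all, or 0.0324% of the 6 arms, whereas the other lists held between 1569 and 6821 peaks and covered from 0.416% of the arms (Brm) to 12.0% (Kismet). The median H1 peak was 279 bp long, with quartiles of 239 and 307 bp and a range from 8 to 3143 bp. The Brm list had a similar median, 259 bp, and the medians of the other 5 lists lay between 656 bp (Trr) and 1784 bp (Kismet). Of the H1 peaks, 74 (57.4%) were 240 to 312 bp long, and only 2 (1.55%) fell in the next band of equal width, from 313 to 385 bp. These bands were set once the lengths were known. The same band of 240 to 312 bp held 33.2% of Brm peaks, 12.3% of Trr peaks and between 2.74% and 4.25% of the peaks of the other 4 lists. At the ends of the range, 6 H1 peaks were under 20 bp and 6 (4.65%) reached 1 kb.

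**Figure D1:**
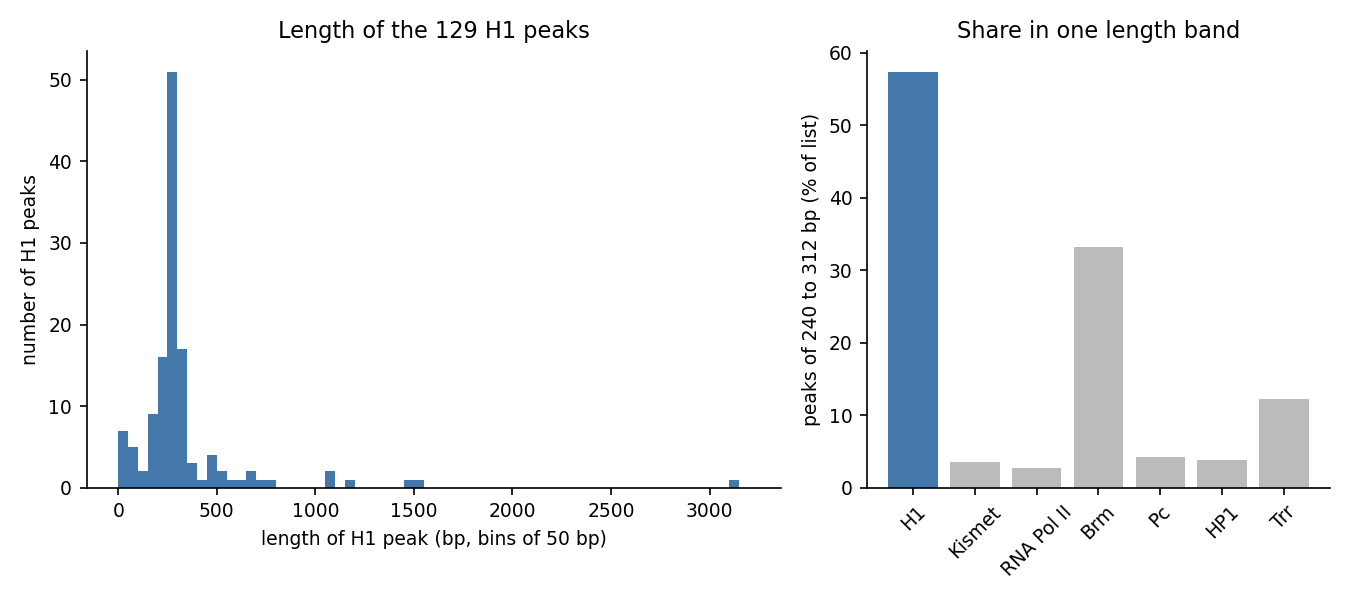
Left, number of H1 peaks by length in bp, in bins of 50 bp; right, share of the peaks of each list, in percent, that were 240 to 312 bp long. Most H1 peaks stand in a narrow band around the median of 279 bp, with a thin tail to 3143 bp, and the H1 share of the band, 57.4%, was followed by that of Brm, 33.2%.

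The longest H1 peak, of 3143 bp (2R, 4363573 to 4366715), lay in Gprk1 (FBgn0260798), a kinase of G protein-coupled receptors whose gene body was covered to 69.7% by HP1 peaks. The next, of 1532 bp on 3R (11982011 to 11983542), ran from the end of CG12224 into CG3397 and had the same start and end as a Brm peak. A peak of 1457 bp on 3L (25354469 to 25355925) lay in lovit, which encodes a vesicular transporter of photoreceptors, and inside HP1-bound sequence. Peaks of 1068 bp were found in l(3)80Fg, inside an HP1 peak, and in CG33296, where it touched a Pc peak. A peak of 1197 bp on 2L (23370060 to 23371256) lay outside genes, between the annotated genes CR42530 and CR41519 45867 and 44659 bp from them, also inside HP1 sequence. The rest of the 10 longest were peaks of 787 bp in na, which encodes a sodium leak channel, of 691 bp in CG13223, and of 735 and 653 bp outside genes on 2R, which lay between IntS3 and Gprk1 and inside HP1 peaks. Of these 10 peaks, only those in na and CG13223 touched no peak of another list.

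H1 peaks were not spread evenly over the arms. There were 34 on 2L (1.45 per Mb), 32 on 2R (1.27 per Mb), 26 on 3R (0.811 per Mb), 19 on 3L (0.676 per Mb) and 18 on X (0.765 per Mb). Chromosome 4, which is rich in HP1 (37.1% of its bases in HP1 peaks), held 0 of 129, which allows a share of up to 2.33% and cannot be told apart from the 0.955% of the arms that this chromosome makes up.

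With the 5 large arms pooled, H1 peaks were densest between 4 and 5 Mb from the centromere-side end, and most of these were on 2R and 3L. The 5 Mb next to the centromere-side end of each of the 5 large arms, 18.7% of the arms, held 38 peaks (29.5%, interval 22.3 to 37.8%) and 36.5% of H1 peak bp. That is 1.52 peaks per Mb, against 0.837 per Mb elsewhere. The excess came from a narrow stretch. In 1 Mb steps from the end, the zone held 5, 3, 5, 7 and 18 peaks, and the fifth step, from 4 to 5 Mb, reached 3.60 per Mb against 0.964 per Mb over all arms. Within 2 Mb of the end the density was 0.800 per Mb, beside 0.977 per Mb outside. This rests on 8 peaks (6.2%, interval 3.18 to 11.8%) on 7.47% of the arms, so no difference can be read beyond counting error. HP1 peaks covered 60.3% and 63.6% of these first 2 steps and 32.1% of the fifth. Sites with low counts were left out before peaks were called, and their part in densities along the arms was not tested. Of the 18 peaks in the fifth step, 8 were on 2R and 4 on 3L, and all 12 of those touched HP1 peaks. Another 5 were on 2L, of which 1 touched HP1 and the others touched Pc, Trr or Kismet peaks. On X there was 1, which touched no list, and on 3R none. The fifth step was singled out once its count was known. The proximal peaks were divided unequally among arms, with 18 on 2R, 10 on 3L, 8 on 2L and 1 each on 3R and X.

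**Figure D2:**
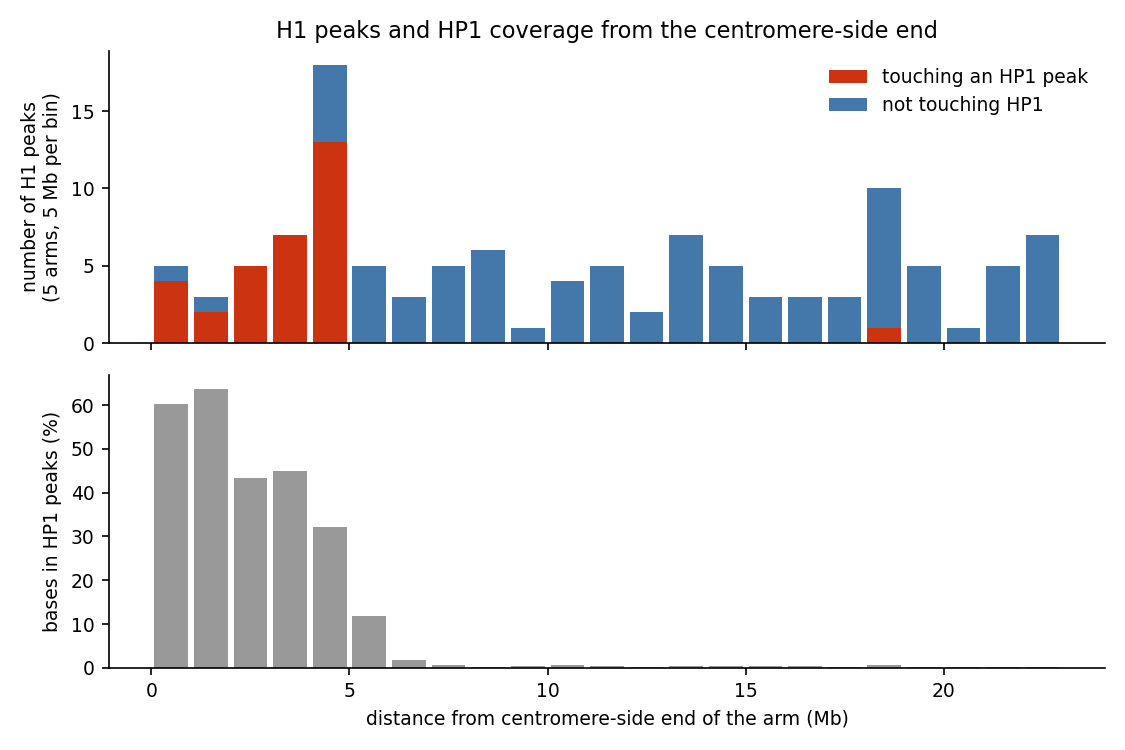
Top, number of H1 peaks in 1 Mb steps from the centromere-side end of the 5 large arms pooled (5 Mb of sequence per step, the 23 steps that all 5 arms reach in full), with peaks that touch an HP1 peak in red; bottom, percent of bases in HP1 peaks in the same steps. H1 peaks reach 18 in the step from 4 to 5 Mb, where 13 touch HP1, whereas HP1 coverage is highest in the first 2 steps, at 60.3% and 63.6%.

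Some H1 peaks stood close together. With gaps of up to 50 kb, 42 peaks (32.6%) fell into 19 runs, and the run with the most peaks was of 4 within 58620 bp of dpr21 (FBgn0260995), a cell surface immunoglobulin protein of neurons. The gene dpy, which encodes a giant extracellular matrix protein, held 3 peaks within 15802 bp, of 283, 266 and 287 bp, in a gene body of 136839 bp with no peak of any of the other 6 proteins. H15, Ca-beta, Gprk1, zormin and Ten-a each held a pair of peaks in such a run, and the pair in Ten-a was also held by the overlapping lncRNA:CR43960. Snap25 and lovit also held 2 peaks each, which lay further apart than 50 kb. H15 encodes a T-box transcription factor, Ca-beta a calcium channel subunit, zormin a titin-like protein of muscle, Snap25 a vesicle fusion protein, and Ten-a a teneurin of synapses. All other genes held 1 peak.

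H1 peaks lay inside genes about as often as arm sequence does, and seldom near gene ends. At least 1 bp of a gene was touched by 96 peaks (74.4%, interval 66.3 to 81.2%), and 90 peaks lay wholly in genes. Midpoints fell in gene bodies for 93 peaks (72.1%), where 69.5% of arm bases are genic. Midpoints within 500 bp of a gene end numbered 14 (10.9%), where 17.9% of arm bases lie that close. This was the smallest such share of the 7 lists, beside 13.8% for HP1, 14.9% for Pc, 19.9% for Brm, 24.2% for Kismet, 36.4% for Trr and 46.6% for RNA Pol II. Gene strand, exons and introns were not analysed here, so neither end is called a start site. In the centromere-proximal zone 22 of 38 peaks (57.9%) touched genes, and on the rest of the arms 74 of 91 (81.3%). Gene density differs between these zones. Genes covered 34.9%, 44.6%, 69.5%, 46.6% and 59.7% of bases in the 5 proximal steps of 1 Mb. In the steps beyond they covered between 56.6% and 81.1%. The part of gene density in this contrast was not tested. All but 1 of the 16 proximal peaks outside genes touched HP1. Of the 17 on the rest of the arms, 12 touched no other list, 4 touched Pc and 2 touched Brm, 1 of which touched both. The longest of these 17, 562 bp on 2R, lay between the cuticle protein genes Cpr47Ed (1163 bp away) and Cpr47Ee (1594 bp away), and the next, 427 bp on 2L, between mol and DCTN5-p25.

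Of 17684 genes on the 6 arms, 94 (0.532%) held an H1 peak. They were 89 of 13922 protein-coding genes (0.639%) and 5 of 1959 lncRNA genes (0.255%), and no tRNA, snoRNA, miRNA, rRNA or pseudogene was among them. The genes were long. Their median length was 21715 bp, with quartiles of 4369 and 67740 bp, against a median of 1710 bp and quartiles of 814 and 3910 bp over all genes. Genes holding peaks of the other proteins had medians from 2509 bp (RNA Pol II) to 11210 bp (Brm). The 16 H1 genes in the proximal zone had a median length of 109528 bp, and the 78 on the rest of the arms 21020 bp against 1719 bp for all genes there.

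A long gene offers more room for a peak, and per length of sequence the classes differed little. The share of genes with an H1 peak was 0.131% below 2 kb (13 genes), 0.313% from 2 to 10 kb (18), 1.98% from 10 to 50 kb (34) and 9.09% at 50 kb and over (29 of 319). Per Mb of gene body there were 0.986, 0.794, 0.986 and 1.16 H1 midpoints in the same 4 classes, 0.883 outside genes and 0.964 over all arms. The order of these densities cannot be read beyond counting error, since the classes held 9, 18, 35 and 35 midpoints.

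**Figure D3:**
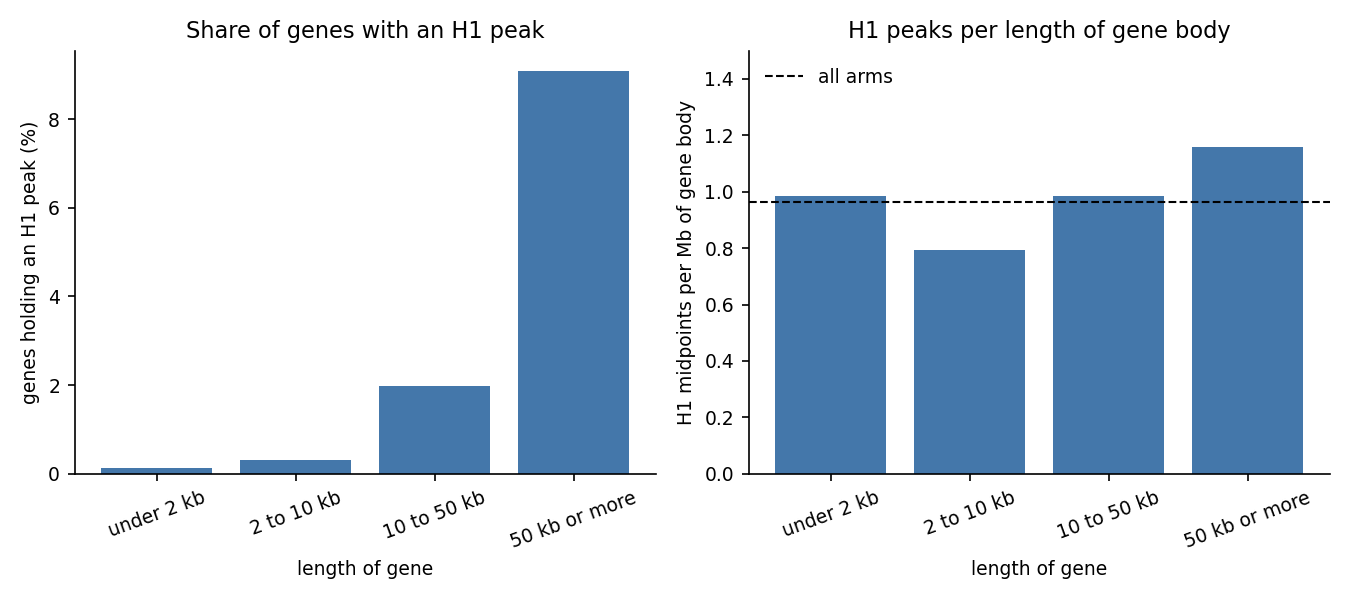
Left, percent of genes that held an H1 peak in 4 classes of gene length; right, H1 peak midpoints per Mb of gene body in the same classes, with the value over all arms as a dashed line. The share of genes rises from 0.131% to 9.09% with length, while the density per Mb stays between 0.794 and 1.16.

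Small genes filled by a peak were few. The largest shares of a gene body in H1 peaks were 40.3% of CG33296, 34.8% of lncRNA:CR44803, 30.8% of CG3397, 29.5% of CG13223 and 26.5% of CG33459.

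Of the 129 H1 peaks, 71 (55.0%) touched no peak of the other 6 lists, and the rest fell mainly to HP1 and Pc. HP1 was touched by 32 peaks (24.8%), Pc by 15 (11.6%), Brm by 9 (6.98%), Kismet by 2, Trr by 2 and RNA Pol II by 1, over 4 bp. Read from the other side, H1 peaks were touched by 1.37% of HP1 peaks, 0.626% of Pc peaks, 0.574% of Brm peaks, 0.0438% of Kismet peaks, 0.0413% of Trr peaks and 0.0147% of RNA Pol II peaks. The Dam-only samples that H1 shares with HP1, Brm and Pc bear on these values, and their part was not tested.

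**Figure D4:**
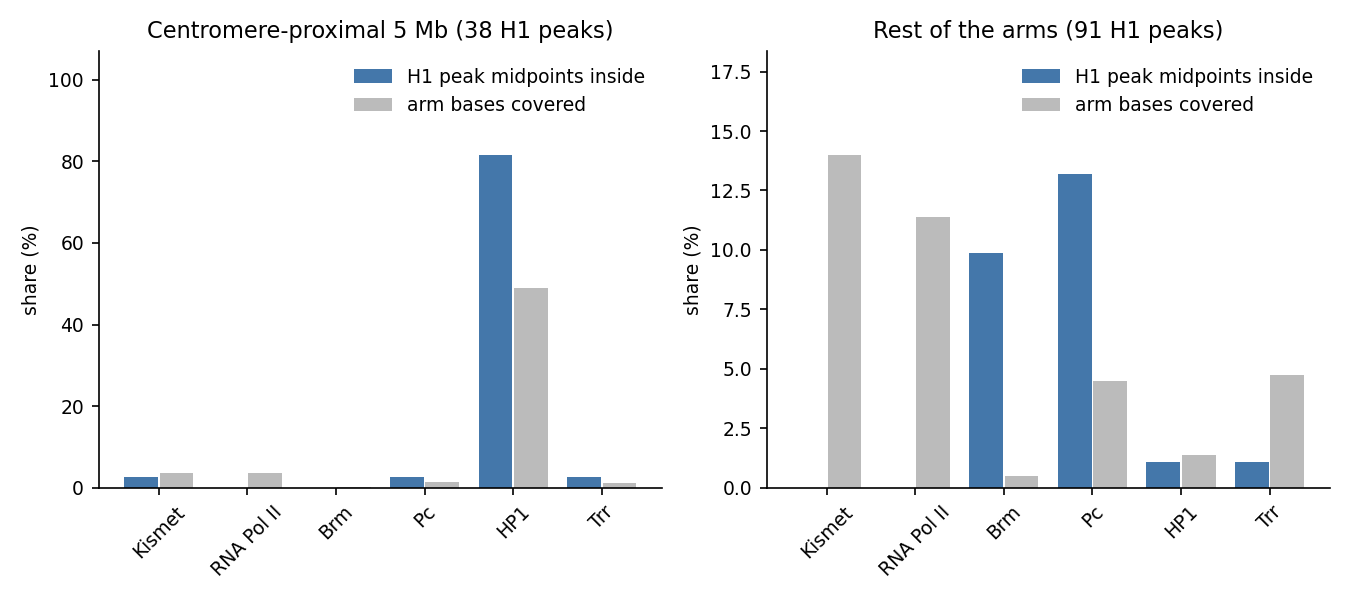
Percent of H1 peak midpoints inside the peaks of each other protein (blue) beside the percent of arm bases those peaks cover (grey), in the centromere-proximal 5 Mb of the large arms (left, 38 H1 peaks) and on the rest of the arms (right, 91 H1 peaks). HP1 holds 81.6% of proximal midpoints, and on the rest of the arms Pc and Brm hold more midpoints than their coverage, 13.2% and 9.89%, while Kismet and RNA Pol II hold none. Proximal coverage is pooled over the large arms, among which the proximal H1 peaks were divided unequally.

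HP1 sequence held most of the proximal H1 peaks and almost none of the others. In the proximal zone 31 of 38 peaks (81.6%) lay in HP1 peaks, which covered 48.9% of that sequence with the 5 arms pooled. On the rest of the arms it was 1 of 91 (1.10%), where HP1 covered 1.39%. Of the proximal peaks 18 were on 2R and 10 on 3L. These are the large arms with most HP1 over their whole length, 16.1% and 14.5% of bases. HP1 covered 4.35% of 2L, 4.58% of X and 9.4% of 3R. The part of this mix of arms in the proximal contrast was not tested. All 32 peaks that touched HP1 lay wholly inside HP1 peaks, 30 in number, whose median length was 13797 bp. The median over the whole HP1 list was 1448 bp, but a long peak offers more room for an H1 peak, so the choice of these peaks favours long ones. The peaks in HP1 sequence were far from the proteins of active chromatin, at a median of 158834 bp from RNA Pol II and 1281249 bp from Kismet. Since 31 of the 32 were proximal and other sequence of that zone was not measured, these distances are not claimed to be particular to H1 peaks. Of these 32 peaks, 15 lay outside genes and 17 in 11 genes. In 9 of the 11 genes HP1 covered between 62.1% and 88.1% of the body. Those 9 genes were 76790 to 709421 bp long.

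The gene dpr21 on 2R was covered by HP1 to 88.1% and held its 4 peaks of 112, 310, 266 and 282 bp. The gene lovit was covered to 87.0%, l(3)80Fg to 85.3%, l(2)41Ab to 83.7% and CG41520 to 79.8%. Pzl, which encodes a Piezo-like channel, is the longest H1 gene, and it was covered to 79.0% and held 1 peak of 135 bp. Snap25 was covered to 72.3%, Gprk1 to 69.7%, and nvd, which acts in ecdysteroid synthesis, to 62.1%. Of these 9 genes, only Gprk1 and l(3)80Fg held an RNA Pol II peak, and l(3)80Fg alone a Kismet peak. The other 2 of the 11 genes were CG33120, with HP1 over 16.2% of its body, and Pgant5, where the H1 peak had the same start and end as an HP1 peak and a Trr peak. The proximal peaks that touched no list were in DIP-lambda, where the peak was 28 bp long and HP1 covered 49.3% of the gene, in lncRNA:CR44803 and in CG12609.

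Pc domains held a group of H1 peaks in genes of developmental transcription factors. On the rest of the arms 13 of 91 peaks (14.3%) touched Pc, with midpoints inside for 13.2% where Pc covered 4.50%. Another 2 such peaks were on proximal 2L. The Pc peaks around H1 peaks had a median of 5263 bp over 14 such Pc peaks, against 919 bp over the whole list, where the same choice favours long peaks. In genes, 10 peaks touched Pc, in 10 genes, and in 9 of these Pc covered more than 50% of the body. Among them were the homeodomain factors unc-4 (Pc over 98.0% of the gene), lbe (87.6%), Lim1 (82.4%) and tup (62.2%). The T-box factor H15 was covered to 70.9% and held 2 H1 peaks, of 294 and 214 bp. The GATA cofactor ush was covered to 63.6%. On 3R an H1 peak of 286 bp lay in the bithorax region, within both lncRNA:iab8 (82.2%) and the overlapping MSAmiP (78.4%). Of these 9 genes ush and tup also held RNA Pol II and Kismet peaks, and the other 7 held neither. CG33296 was the tenth, with Pc over 14.9%.

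Outside genes, 5 H1 peaks touched Pc. Of these, 1 lay 8368 bp from ems and 1 lay 6016 bp from sr and 1933 bp from bard. A peak that touched both Pc and Brm was 8046 bp from disco-r and 4810 bp from CG42353. The remaining 2 were 432 bp from CG14362 and 703 bp from CG17325. The gene ems encodes a homeodomain factor, and sr and disco-r encode zinc finger factors.

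Brm shared 9 peaks with H1, and each had exactly the same start and end in both lists. All were outside the proximal zone, where 9.89% of H1 midpoints fell in Brm peaks that cover 0.489% of the sequence. For comparison, 2 of 32 H1 peaks touching HP1 (6.25%) and 0 of 15 touching Pc had identical edges, and among the 20 Brm peaks that touched HP1, 7 (35.0%) were identical to an HP1 peak. Peak length limits this comparison. H1 and Brm peaks had like medians, 279 and 259 bp, whereas the HP1 and Pc peaks around H1 peaks had medians of 13797 and 5263 bp. A long peak can seldom have the edges of a short one. The same 3 Dam-only samples were used for H1, Brm and HP1, and their part in the shared edges was not tested. Both H1 peaks that touched Trr were also identical to a Trr peak, and Trr shared no Dam-only sample with H1. The 9 peaks were 10 to 1532 bp long. They lay in the genes Nrg, a, klg, flap, fusl, CG12224 with CG3397, and CG7886 with Cad88C, and outside genes near tal-1A and near disco-r. Nrg encodes neuroglian, an adhesion protein of neurons and epithelia, and klg an immunoglobulin adhesion protein. This group stood nearest to active chromatin after the 4 peaks that touched Kismet, RNA Pol II or Trr, with medians of 5232 bp to the nearest Kismet peak and 5815 bp to the nearest RNA Pol II peak.

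Outside the proximal zone H1 peaks were nearly absent from peaks of RNA Pol II and Kismet, and few lay in Trr peaks. On the rest of the arms no H1 midpoint lay in the Kismet or RNA Pol II peaks, which covered 14.0% and 11.4% of the sequence. In Trr peaks, which covered 4.75%, lay 1 (1.10%). The interval of that share, 0.194 to 5.96%, includes the coverage, so for Trr no difference can be read beyond counting error. In the proximal zone 1 of 38 midpoints (2.63%) lay in Trr peaks, which covered 1.18%. A count of 0 in 91 allows a share of up to 3.30%. Over all arms, 4 peaks touched any of these 3 lists, in drl and Spn (Kismet), l(2)37Cb (Trr) and Pgant5 (RNA Pol II, Trr and HP1). Pgant5 excepted, these genes were picked once their values were known. The gene drl encodes a Ryk-type receptor of Wnt ligands. The median distance from an H1 peak on the rest of the arms to the nearest RNA Pol II peak was 21351 bp, to Kismet 17757 bp and to Trr 23930 bp. Pc peaks there were nearer, at 8312, 6374 and 14816 bp. Within 10 kb of an RNA Pol II peak lay 28.6% of H1 peaks and 54.0% of Pc peaks. Distances run from peak edges, so a longer peak reaches nearer, and the list medians were 279 bp for H1 and 919 bp for Pc. The share of arm sequence within 10 kb of RNA Pol II was not measured, so these values are not set against a background.

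**Figure D5:**
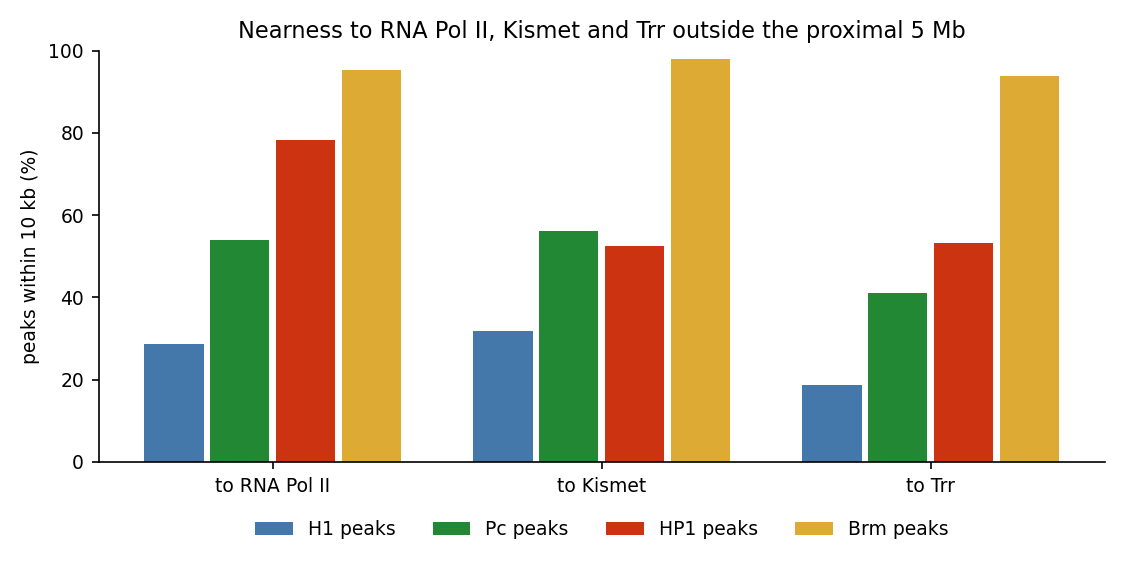
Percent of the peaks of H1, Pc, HP1 and Brm outside the centromere-proximal 5 Mb that lay within 10 kb of a peak of RNA Pol II, Kismet or Trr. The H1 bars are the lowest of each group, at 28.6%, 31.9% and 18.7%, and the Brm bars the highest. The lists differ in peak length, and the share of arm sequence this near was not measured.

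The 71 peaks that touched no other list were mostly in genes (59, or 83.1%), in 61 genes, and 68 of them lay outside the proximal zone. Their share in genes is near that of all H1 peaks outside that zone, 81.3%, and is not particular to this group. They were 9 to 787 bp long, with a median of 268 bp. Their median distances were 20057 bp to Kismet, 21720 bp to RNA Pol II, 24895 bp to Trr, 96209 bp to Pc and 102171 bp to HP1. The gene dpy held 3 of them, and Ca-beta, zormin and Ten-a held 2 each. Other genes of this group, picked once their values were known, were the atypical cadherins ft and stan, the ryanodine receptor RyR, the nesprin Msp300, the NADPH oxidase Duox and the Wingless co-receptor arr. In arr the H1 peak of 92 bp was 776 bp from a Kismet peak, whereas in RyR, stan and Duox no peak of the other proteins lay in the gene.

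Counted over all lengths, genes with an H1 peak held peaks of the repressive proteins more often than all genes, and of RNA Pol II less often. Gene length bears on each value, and within length classes the HP1 and Pc differences went in both directions. Of the 94 genes, 17 (18.1%) held HP1 against 4.64% of all genes, 13 (13.8%) Pc against 5.21%, and 13 (13.8%) Brm against 5.95%. RNA Pol II was held by 25 (26.6%) against 41.5%, Kismet by 28 (29.8%) against 23.5%, and Trr by 17 (18.1%) against 20.5%. None of the 6 other proteins was found in 38 genes (40.4%), against 48.7% of all genes. Among genes of like length, the shares with RNA Pol II, Kismet and Trr were below those of all genes in each of the 4 classes. At 50 kb and over, Kismet was held by 41.4% of H1 genes and 68.3% of all genes, RNA Pol II by 27.6% and 60.8%, and Trr by 20.7% and 52.4%. From 10 to 50 kb these shares were 44.1% and 56.9%, 41.2% and 59.3%, and 29.4% and 46.2%. From 2 to 10 kb, 1 of 18 H1 genes held RNA Pol II (5.56%), where 53.1% of all genes did. HP1 at 50 kb and over was held by 48.3% of H1 genes and 27.9% of all genes, whereas from 10 to 50 kb it was 5.88% and 12.2%. The length classes were not split by position on the arm. The 29 H1 genes of 50 kb and over include the 9 proximal genes with HP1 over 62.1% to 88.1% of the body. Of those 9, only Gprk1 and l(3)80Fg held RNA Pol II and only l(3)80Fg held Kismet. The part of position in the shares of this class was not tested. Pc at 50 kb and over was held by 13.8% and 23.8%, and from 10 to 50 kb by 20.6% and 14.6%. From 2 to 10 kb HP1 was held by 5.56% of H1 genes and 4.4% of all genes, and Pc by 11.1% and 4.21%. Below 2 kb 0 of 13 H1 genes held HP1 or Pc, against 2.73% and 3.57% of all genes. Brm, which was higher over all lengths, was held by 6.90% and 34.8% at 50 kb and over and by 20.6% and 26.0% from 10 to 50 kb. In the shorter classes its share was higher in H1 genes, on 2 genes each. It was 11.1% (2 of 18) and 5.93% from 2 to 10 kb, and 15.4% (2 of 13) and 1.57% below 2 kb. Outside the proximal zone HP1 was held by 7.69% of H1 genes and 3.59% of all genes, and Pc by 15.4% and 5.18%. These shares were not split by length, and the median gene there was 21020 bp long for H1 genes and 1719 bp for all genes.

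Lists of genes by function were counted without a test, and they differ in size and in gene length. No H1 peak lay in 9 ISC and progenitor genes (among them esg, Delta and Sox21a), 32 enterocyte genes or 14 enteroendocrine genes, and at the 0.532% of all genes lists of this size would seldom hold one. An RNA Pol II peak lay in 8 of these 9 ISC genes, 3 of the 32 enterocyte genes and 4 of the 14 enteroendocrine genes, against 41.5% of all genes. The median lengths of these 3 lists were 18155, 1156 and 5687 bp, and the part of length in these counts was not tested. In 78 genes of ion channels and neurotransmitter receptors, 5 (6.41%) held an H1 peak, namely Ca-beta, na, the heat and irritant channel TrpA1, the muscarinic receptor mAChR-B and the nicotinic receptor subunit nAChRalpha6. In 88 genes of neuronal adhesion and guidance, 4 (4.55%) held H1, namely dpr21, DIP-lambda and the teneurins Ten-a and Ten-m. These 2 lists have median gene lengths of 19998 and 36656 bp, long beside the 1710 bp of all genes. The share with an H1 peak was 1.98% in all genes of 10 to 50 kb and 9.09% in those of 50 kb and over, the class that holds dpr21, DIP-lambda, Ten-a, Ten-m and nAChRalpha6. Of 87 homeobox genes, 4 (4.60%) held H1, namely Lim1, lbe, tup and unc-4. A Pc peak lay in 65 of the 87, against 5.21% of all genes. The median homeobox gene was 11146 bp long, also long beside all genes, and the part of length in these counts was not tested. The H1 peaks of Lim1, lbe and unc-4 lay wholly in Pc peaks, and 4 of the 88 bp of the tup peak did.

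In families of short genes the counts were too small to set apart from the background, which was 0.532% over all genes and 0.131% over genes below 2 kb. Of 211 chemosensory receptor genes, 2 (0.948%) held an H1 peak, the gustatory receptors Gr22d and Gr22f, whose peaks of 256 and 164 bp stood within 33603 bp of each other on 2L. Of 134 cuticle and chorion genes, 1 (0.746%) did, the eggshell gene dec. None of 51 odorant binding protein genes and none of 115 histone genes held an H1 peak.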

How the data were processed

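Deposited peak lists of targeted DamID-seq were used. According to the study's methods, the authors mapped reads with bowtie2 to release 6 of the genome, extended each read up to the next GATC site or to at most 300 nucleotides, took coverage at GATC sites (bedtools), left out sites with low counts, and compared fusion with Dam-only samples by DESeq2. Neighbouring sites that passed, with a log2 ratio above 0, were joined into peaks. Tool versions are not given in the sources used here. All samples of a fusion entered a joint call, so the deposited lists hold positions in bp only, with no count, score or value per sample, and no test, interval over samples or leave-one-out fit could be had.

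Starts were shifted to count from 1. Genes were the 17684 RefSeq genes of the same release (Release 6 plus ISO1 MT) on 2L, 2R, 3L, 3R, 4 and X, joined by symbol to FlyBase identifiers (17684 matched). A gene held a peak when they shared at least 1 bp. The study's rule of consecutive sites within a gene was not used here. Arm ends were the last gene or peak. Overlap code was tested on simulated data. Python 3.11.15, NumPy 2.4.6, SciPy 1.17.1 and matplotlib 3.10.9 were used.

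The members and gene lists were chosen with earlier results of these data known. Genes were named if they held the 10 longest peaks, 2 or more peaks, or 1 of the 5 largest body shares, if HP1, Pc or Brm lay within 1 kb of the peak, if they were list members with a peak, or if they flanked the 5 longest intergenic peaks. Other genes were picked once their values were known, and these include the neighbours of intergenic peaks that touched Pc or Brm. Alternatives were other overlap rules, longer peaks only, other zone widths, coding genes only, and leaving out chromosome 4 or X. Sequences and the RNA-seq samples were not used here. The values of 1 gene that the rule names are not reported here.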

Additional observations from a re-analysis of the deposited data

How the results depend on the processing

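No paired analysis was possible because the lists hold no value per sample, and for the same reason no replicate could be left out in turn. Of 77 alternative values over 16 results, 70 stayed within the interval or within 1.5 times the count. Among these 70 is the value without chromosome 4 of each result. It was bound to equal the main value, as that chromosome held 0 H1 peaks, so it says nothing about stability. With only peaks at or above the median length, 51 genes held an H1 peak instead of 94, since fewer peaks were counted, and the share of H1 peaks touching RNA Pol II or Trr fell to 0% from 0.775% and 1.55%. The RNA Pol II share was also 0% when at least 50% of the H1 peak had to be covered. The centromere-proximal share of H1 peak bp, 36.5% with 5 Mb, was 6.39% with 2 Mb, 13.7% with 3 Mb and 51.1% with 10 Mb, so the width of the zone sets it. Peaks are few, and shares that rest on 1 or 2 peaks move with any rule. The depth behind the calls is unknown.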

Other observations

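The 6 H1 peaks under 20 bp were 8 bp long in Gprk1, 9 bp in Pde9 and outside genes on 3L, 10 bp in klg, 11 bp outside genes on 3R and 13 bp in CG41520. The 10 bp peak was identical to a Brm peak. Of all 129 H1 peaks, 128 held no further site inside them that is an edge of a peak in another list. Few could hold one, since 71 touched no other list and most of the rest lay wholly inside another peak. The count therefore does not tell how many GATC sites lie inside H1 peaks. The H1 peaks touching Trr were both identical to a Trr peak, in Pgant5 and l(2)37Cb, although the 2 lists share no Dam-only sample.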
